A study of Danio rerio with 4 samples.

Results

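The libraries labelled 3dpl/MTZ and 3dpl are single-cell RNA libraries from the stab-lesioned telencephalon of adult zebrafish, and they were set against each other here in radial glia. A cell was kept with at least 300 genes and at most 25% of its unique molecular identifiers (UMIs, each marking 1 captured RNA molecule) from mitochondrially encoded genes. It was counted as radial glia when fabp7a, a fatty acid binding protein gene of radial glia, made up at least 0.5% of its UMIs. These rules kept 1296 cells of the library labelled 3dpl/MTZ and 960 of the library labelled 3dpl, together 2256 of 4857 cell barcodes in the series. Fish of 3dpl/MTZ carried Tg[GFAP:dTomato]nns17Tg and Tg[mpeg1:NTR-EYFP]w202, received metronidazole (MTZ) and were taken 3 days after the lesion. Fish of 3dpl carried Tg[GFAP:dTomato]nns17Tg only and were also taken 3 days after the lesion. A second pair from uninjured fish, Non-injured/MTZ and Non-injured, differed in the same 2 ways, and contributed 1254 and 683 radial glia. All fish were 3 to 7 months old, 7 telencephalons were pooled for each library, and living dTomato-positive cells were collected by flow sorting before 10x 3' v3 capture. Each condition is 1 library, so MTZ, strain and pool cannot be told apart, no difference has a replicate check, and every interval given covers counting error only.

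Microglia are the resident macrophages of the brain, and they clear debris and release cytokines after injury. Radial glia line the ventricle of the adult zebrafish telencephalon, act as neural stem cells and respond to a stab wound with reactive gene expression, division and the production of new neurons. In the mpeg1:NTR-EYFP line the mpeg1 promoter, active in microglia and other macrophages, drives nitroreductase, an enzyme that turns metronidazole into a toxic product inside the cells that make it. By its labels the pair addresses how radial glia of the injured brain look when macrophage-lineage cells have been targeted. The telencephalon was sorted for dTomato, so the libraries do not count the microglia of the tissue.

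The microglial gene mpeg1.1 went against the label. Over all filtered cells it had 123 UMIs (16.4 CPM, UMIs of the gene per 1000000 UMIs; 95% Poisson interval 13.6 to 19.6) in the library labelled 3dpl/MTZ, against 11 UMIs (2.05 CPM, 1.03 to 3.68) in the library labelled 3dpl. The uninjured pair had 25 UMIs in Non-injured/MTZ and 0 UMIs in Non-injured, where the upper limit was 1.26 CPM. Directions below are between libraries named by these labels; whether labels were exchanged, or whether the sort took up macrophage-lineage cells, was not tested. Inside the radial glia gate mpeg1.1 was at 0 UMIs in both lesioned libraries. Of 24 microglia markers, 13 were at 0 in each lesioned library and 8 in both, and the summed level was 29.2 CPM in 3dpl/MTZ and 74.4 CPM in 3dpl. Of these UMIs cd74b alone made up 144 of 176 in 3dpl/MTZ and 265 of 335 in 3dpl, which left 32 and 70 for the other markers. Among these were 10 and 38 of the protease gene ctss2.1 and 0 and 10 of havcr1. The remaining markers had few UMIs and went both ways, with ptprc at 5 and 3, spi1b at 2 and 0, slc7a7 at 6 and 7 and ccl34b.1 at 0 and 4. The lower sum in 3dpl/MTZ thus lay mainly in cd74b, ctss2.1 and havcr1. Outside the gate 3dpl/MTZ was ahead, with 33 cells of 3dpl/MTZ and 6 of 3dpl carrying at least 5 microglia markers.

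The gate took 79.7% of filtered cells in 3dpl/MTZ (95% Clopper-Pearson interval 77.7 to 81.6) and 89.1% in 3dpl (87.0 to 90.9), and 144 and 16 of the cells outside it carried at least 5 neuronal markers. The 11 radial glia markers other than fabp7a, which the rule used, had a summed level of 44878 CPM in 3dpl/MTZ and 37273 CPM in 3dpl, none of them was called, and gfap, the intermediate filament gene of glia, had a UMI in 78.2% and 75.8% of gated cells. Gated cells held 6032036 UMIs in 3dpl/MTZ and 4501959 in 3dpl, with medians of 4151.5 and 3928 UMIs and of 1628.5 and 1437 genes per cell. The median mitochondrial share was 2.88% in 3dpl/MTZ and 1.89% in 3dpl. The 2 libraries shared 1 barcode, which was in neither gate. Just inside the gate, 26 and 20 cells had 0.5 to 0.6% fabp7a, and just outside it 19 and 25 cells had 0.4 to 0.5%.

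UMIs were summed per gene over the gated cells of each library and turned into CPM. A gene was called when the pair held at least 100 UMIs of it, the CPM ratio was 1.5-fold or more and the exact 95% counting interval left out equality. Of 7746 genes tested, 603 were called higher in 3dpl/MTZ (7.78%) and 563 lower (7.27%), and the median log2 ratio over the 12513 genes with at least 20 UMIs was 0.02. The interferon response gave the clearest pattern, with 25 of 35 tested members lower in 3dpl/MTZ and none higher. Complement gene c7b, the reactive glia genes vim and timp2b, the NF-kB inhibitor genes nfkbiaa and nfkbiab and the inducible HSP70 genes were also lower. Prostaglandin D synthase, several genes of cholesterol synthesis and some mitochondrially encoded transcripts were higher.

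**Figure D1:**
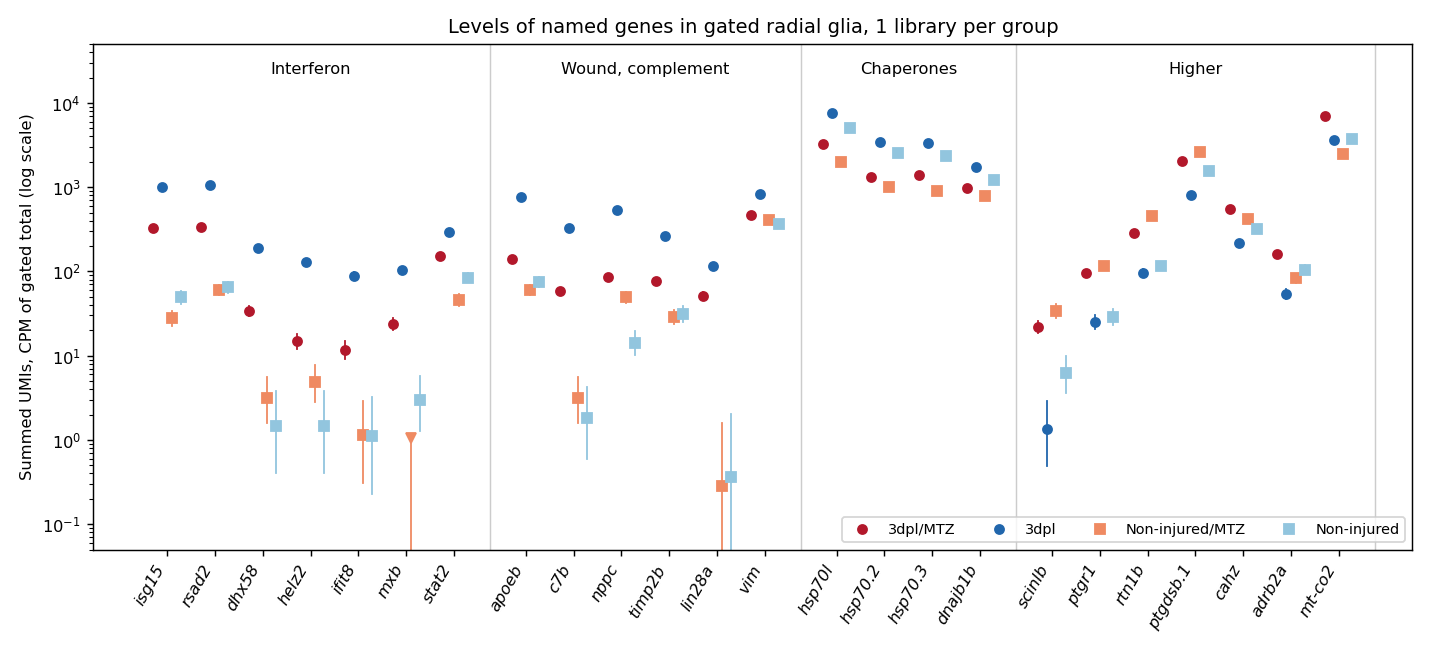
Level (CPM, log axis) of genes called between the lesioned libraries, in gated radial glia of the 4 libraries; each point is 1 library, bars are 95% Poisson intervals for counting error, and a triangle marks the upper limit of a gene at 0 UMIs. For isg15 the 3dpl/MTZ point sits at 324 CPM and the 3dpl point at 1000.2 CPM.

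Type I interferons bind a receptor that works through transcription factors such as STAT2 and IRF9, which switch on antiviral genes. Of 61 interferon response genes listed, 53 were in the files and 40 had at least 20 UMIs in the pair, of which 37 had a log2 ratio below 0. A member could reach the minimum through the library in which it was high, in this list and in those below. The median log2 ratio was −1.11, against 0.02 over all genes. Without ifi45, a member that held 19923 and 22069 of the UMIs, the summed level was 1954 CPM in 3dpl/MTZ and 4636 CPM in 3dpl, a ratio of 0.422 (95% counting interval 0.412 to 0.431; this sum was chosen after the data were seen). With ifi45 the ratio was 0.551.

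Among the effectors, isg15 (ENSDARG00000086374), which encodes a ubiquitin-like protein joined to other proteins, had 324 CPM in 3dpl/MTZ, 1000.2 in 3dpl, 27.7 in Non-injured/MTZ and 49.2 in Non-injured. The log2 ratio of the lesioned pair was −1.63 (95% interval −1.71 to −1.55). The antiviral enzyme gene rsad2 (ENSDARG00000004952) had 337 CPM in 3dpl/MTZ and 1055 CPM in 3dpl, against 60.04 and 65.04 CPM in the uninjured libraries labelled Non-injured/MTZ and Non-injured, with a lesioned log2 ratio of −1.65 (−1.72 to −1.57). Both genes were thus far above their uninjured levels in each lesioned library and highest in 3dpl. The Mx proteins are GTPases that block viruses: mxb had 23.7 CPM in 3dpl/MTZ and 103 CPM in 3dpl, and mxe had 9.12 and 52.2 CPM. Reads of mxb could be shared with its neighbour mxa, whose log2 ratio was −1.20. Transcripts with IFIT repeats, which recognise viral RNA, included ifit8 with 11.8 CPM in 3dpl/MTZ and 88.2 CPM in 3dpl (−2.91, −3.29 to −2.54) and ifit16 with 5.64 and 31.1 CPM (−2.46). The lowest ratio among tested members was that of helz2, a helicase gene induced by interferon, at 14.8 CPM in 3dpl/MTZ and 131 CPM in 3dpl, 8.88-fold lower.

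The RNA sensors and the regulators of the response were divided. The sensor genes dhx58 and ifih1, whose helicases bind viral RNA in the cytoplasm, had log2 ratios of −2.46 (34.2 CPM in 3dpl/MTZ, 188 in 3dpl) and −0.86 (19.6 and 35.5 CPM). The kinase gene pkz, a fish sensor of unusual nucleic acid structure, had 14.4 CPM in 3dpl/MTZ and 57.3 CPM in 3dpl. Of the transcription factors, stat2 was lower with 152 CPM in 3dpl/MTZ and 294 CPM in 3dpl (−0.95, −1.07 to −0.83), as were irf7, which amplifies interferon production (24.2 and 89.96 CPM), and irf8 (41.8 and 116 CPM). The transcription factor gene irf9 had 91.8 and 103 CPM (−0.17) and was not called. Feedback genes were lower too: usp18, whose product removes ISG15 from proteins, had 5.14 CPM in 3dpl/MTZ and 19.3 CPM in 3dpl, and socs1a, an inhibitor of JAK kinases, had 18.2 and 28.7 CPM. The receptor subunit gene crfb1 had 33.99 and 29.5 CPM and was not called.

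Interferon also acts on antigen presentation, in which the immunoproteasome cuts proteins into peptides, TAP transporters carry them and class I molecules display them. Of 44 genes listed, 22 were tested, 8 were lower in 3dpl/MTZ and 1 was higher, with a median of −0.49. These shares, 36.4% lower and 4.55% higher, compare with 7.27% and 7.78% over all tested genes. The summed level was nearly equal, with 3998 CPM in 3dpl/MTZ and 4122 CPM in 3dpl, a ratio of 0.970 (0.952 to 0.989). The list as a sum thus hardly differed. Lower members belonged to peptide supply: the proteasome activator genes psme1 (86.2 CPM in 3dpl/MTZ, 130 in 3dpl; log2 ratio −0.59) and psme2 (−0.63), the immunoproteasome subunit genes psmb10 (−0.76), psmb8a (−0.59) and psmb12 (−0.89), and the transporter genes tap1 (−1.19) and tap2a (−0.67). The remaining lower gene, cd74b, encodes the invariant chain of class II, is also a microglia marker, and had 23.9 CPM in 3dpl/MTZ and 58.9 CPM in 3dpl. The class I light chain genes b2m and b2ml had log2 ratios of −0.14 and 0.13 and were not called, and the class I gene mhc1uka was higher, with 17.6 CPM in 3dpl/MTZ and 10.0 CPM in 3dpl. The psmb8a, psmb12 and tap2a genes lie in 1 cluster of neighbours on chromosome 19 in the RefSeq GRCz12tu annotation.

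Cells were thinned to 1000 UMIs each to compare shares at equal depth, which kept 1237 cells of 3dpl/MTZ and 922 of 3dpl. An isg15 UMI was found in 13.1% of cells in 3dpl/MTZ (11.3 to 15.1045) and 27.4% in 3dpl (24.6 to 30.4), against 22.1% and 37.1% before thinning and 2.47% in 162 cells with neuronal markers from all libraries (median 3421 UMIs before thinning, against 4151.5 and 3928 in the gated cells). Of the 173 such neuronal cells before thinning, 144 were from 3dpl/MTZ and 16 from 3dpl. The pooled neuronal share thus mostly describes 3dpl/MTZ. Without ifi45, the interferon list had a mean of 1.77 UMIs per thinned cell in 3dpl/MTZ and 3.95 in 3dpl, against 0.588 and 0.589 in Non-injured/MTZ and Non-injured. At least 3 such UMIs were found in 18.6% of cells in 3dpl/MTZ and 33.5% in 3dpl, and at least 10 in 3.15% and 10.7%. The difference therefore ran through cells of moderate and of high signal. With ifi45 included, cells with at least 1 UMI made up 77.2% in 3dpl/MTZ and 78.4% in 3dpl, while at least 10 UMIs were found in 17.3% (15.23 to 19.53) and 28.1% (25.2 to 31.1). Signal was unevenly spread: the 10% of cells richest in interferon transcripts held 53.7% of these UMIs in 3dpl/MTZ and 51.4% in 3dpl.

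**Figure D2:**
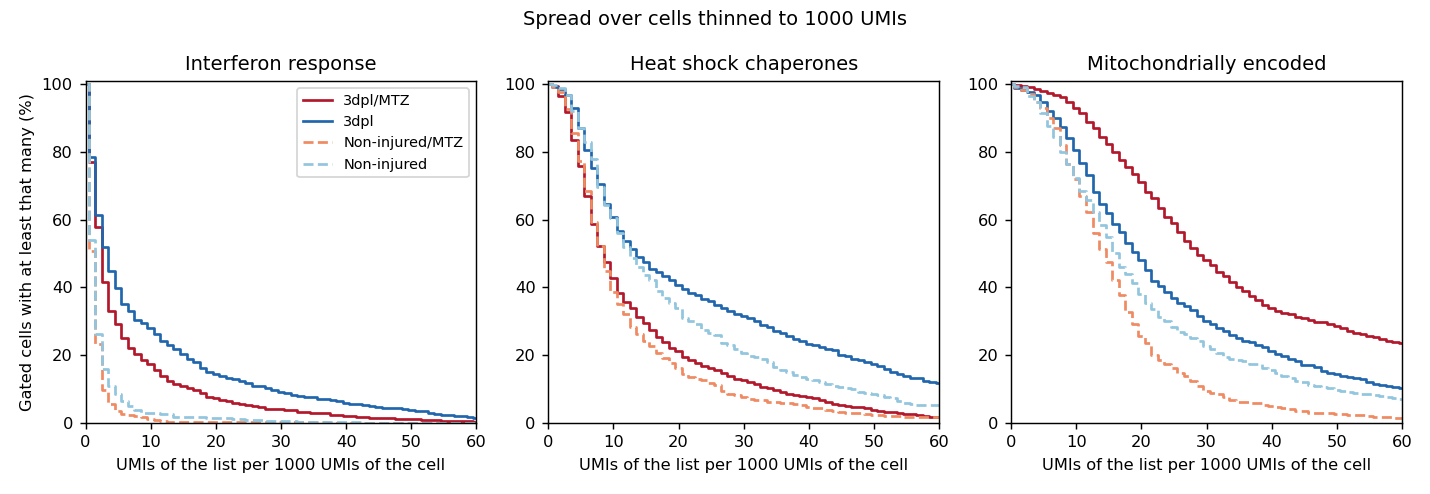
UMIs of a gene list per gated cell after thinning to 1000 UMIs (x axis), and the share of cells with at least that many (y axis, percent), 1 line per library and 1 panel each for the interferon, chaperone and mitochondrially encoded lists. For the interferon response at 10 UMIs the lines stand at 17.3% in 3dpl/MTZ, 28.1% in 3dpl, 1.23% in Non-injured/MTZ and 2.77% in Non-injured.

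Microglial RNA and capture depth were looked at beside these values. No gated cell of 3dpl/MTZ and 1 of 3dpl carried 3 or more microglia markers. When cells with microglial or neuronal markers were left out, 26 interferon genes were lower. Only that 1 cell was left out for microglia markers, so this value cannot bear on microglial RNA, whose part was not tested. After thinning, 9 interferon genes still passed the call, with fewer UMIs to test. Counting each gene at most 1 time in a cell moved the list's median to −0.63, with 17 genes lower, and gave log2 ratios of −0.75 for isg15 and −0.36 for rsad2. The 330 and 118 filtered cells outside the gate, a mixture that differed between the libraries, had 1296 CPM of interferon transcripts in 3dpl/MTZ and 4341 CPM in 3dpl, a ratio of 0.298. Among them, the 144 and 16 cells with at least 5 neuronal markers had 434 CPM in 3dpl/MTZ and 4149 CPM in 3dpl. That ratio was 0.105, or 0.145 without ifi45, and rests on only 16 cells of 3dpl. The lower interferon level in 3dpl/MTZ was thus not particular to gated cells, and its cause was not tested.

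Complement proteins tag cells and debris for removal and can form a membrane pore. Of 37 complement genes listed, 11 had at least 20 UMIs and 5 were tested, of which 3 were lower in 3dpl/MTZ and none was higher. Over all tested genes 7.27% were lower. With 5 genes tested the count says little of the list, and a gene could reach the minimum through the library in which it was high. The c7b gene, for example, had 349 UMIs in 3dpl/MTZ and 1455 in 3dpl. The pore component gene c7b had 57.9 CPM in 3dpl/MTZ and 323 CPM in 3dpl, against 3.14 CPM in Non-injured/MTZ and 1.84 CPM in Non-injured, and its lesioned log2 ratio was −2.48 (−2.65 to −2.31). Clusterin, a chaperone outside the cell that restrains the pore and is encoded by clu, had 124 CPM in 3dpl/MTZ and 307 CPM in 3dpl (−1.31), and c4b had 8.45 and 15.1045 CPM. Without a lesion clu was also called lower, with 76.1 CPM in Non-injured/MTZ and 134 CPM in Non-injured. A c7b UMI was found in 2.43% of thinned cells in 3dpl/MTZ and 7.59% in 3dpl. The 10% of cells richest in interferon transcripts held 26.2% of the 42 c7b UMIs left after thinning in 3dpl/MTZ and 50.9% of the 159 in 3dpl. In the other cells c7b had 0.0278 UMIs per 1000 in 3dpl/MTZ and 0.0940 in 3dpl. The 10% was taken within each library, so these other cells were not matched for interferon transcripts.

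The reactive and wound list had 54 genes, of which 35 were tested, 10 were lower and 3 were higher in 3dpl/MTZ. The lower share was 28.6%, against 7.27% over all tested genes, and the higher share was 8.57%, against 7.78%. Its median was −0.07, so the list did not move as a whole. Vimentin, the intermediate filament of reactive glia encoded by vim, had 469 CPM in 3dpl/MTZ, 837 in 3dpl, 411 in Non-injured/MTZ and 362 in Non-injured, with a lesioned log2 ratio of −0.84 (−0.91 to −0.77). Its level in 3dpl/MTZ was near those of the uninjured libraries, and a vim UMI was found in 31.1% of thinned cells in 3dpl/MTZ and 44.5% in 3dpl. The metalloproteinase inhibitor gene timp2b had 76.1 CPM in 3dpl/MTZ and 261 CPM in 3dpl (−1.78), and the matrix glycoprotein gene tnc had 24.4 and 46.9 CPM (−0.94). Heme oxygenase, encoded by hmox1a, breaks down heme and had 81.2 CPM in 3dpl/MTZ and 232 CPM in 3dpl (−1.51), with 1 cell holding 15.8% of the UMIs of the higher library. The RNA-binding gene lin28a, known from the reprogramming of zebrafish Müller glia, was near its floor without a lesion: 51.4 CPM in 3dpl/MTZ and 117 CPM in 3dpl, against 0.286 CPM in Non-injured/MTZ and 0.367 CPM in Non-injured. Its log2 ratio was −1.19 (−1.39 to −0.98), and 0.566% and 2.28% of thinned cells had a UMI. Other lower genes were icn, which encodes an S100-type calcium-binding protein (−1.38), and the genes of annexin A1 (anxa1a, −1.28) and galectin 3 (lgals3b, −0.91). The matrix protease gene mmp9 had 4.81 CPM in 3dpl/MTZ and 81.3 CPM in 3dpl, but 1 cell held 25.1% of its UMIs in 3dpl. The starmaker gene stm, a biomineral protein gene, was lower on 1 cell with 62.4%.

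The 3 members of the same list that were higher in 3dpl/MTZ made up a share near that over all tested genes, 8.57% against 7.78%. They included the growth factor gene mdkb (5239 CPM in 3dpl/MTZ and 3431 in 3dpl, log2 ratio 0.61) and the protease inhibitor gene timp2a (33.3 and 17.8 CPM). The companion midkine gene mdka had a log2 ratio of 0.46 and gfap had 779 CPM in 3dpl/MTZ and 596 CPM in 3dpl (0.39), neither called. Thus vim and gfap, 2 filament genes used to mark reactive glia, had ratios of opposite sign.

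Apolipoprotein E carries lipids between cells, and its gene apoeb (ENSDARG00000040295) is expressed by zebrafish microglia as well as by glia. In the gate it had 142 CPM in 3dpl/MTZ, 757 in 3dpl, 60.6 in Non-injured/MTZ and 75.3 in Non-injured. The log2 ratio was −2.42 (−2.53 to −2.31), and a UMI was found in 7.36% of thinned cells in 3dpl/MTZ and 16.4% in 3dpl, against 0.617% of cells with neuronal markers and 68.1% of 47 cells with microglia markers. The interferon-rich 10% of cells held 13.4% of its 157 thinned UMIs in 3dpl/MTZ and 47.5% of 575 in 3dpl. The natriuretic peptide gene nppc had 84.7 CPM in 3dpl/MTZ and 532 CPM in 3dpl, against 49.7 CPM in Non-injured/MTZ and 14.3 CPM in Non-injured. Its lesioned log2 ratio was −2.65 (−2.79 to −2.51), and the interferon-rich cells held 0% of its 75 thinned UMIs in 3dpl/MTZ and 35.14% of 276 in 3dpl. In cells other than the interferon-rich 10%, apoeb still had 0.122 UMIs per 1000 in 3dpl/MTZ and 0.364 in 3dpl, and nppc 0.0673 and 0.216. The richest 10% was taken within each library, and began near 16 interferon UMIs per thinned cell in 3dpl/MTZ and 28 in 3dpl. The other cells were thus not matched for interferon transcripts, so these values cannot tell whether the lower level was restricted to interferon-rich cells. Counted at most 1 time in a cell, apoeb had a log2 ratio of −0.58, nppc −0.39, timp2b −0.19 and vim −0.26, short of the call, while c7b had −0.93 and lin28a −1.18.

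TNF signalling releases NF-kB from its inhibitors, which are themselves NF-kB targets. Of 40 genes listed, 19 were tested, 8 were lower in 3dpl/MTZ (42.1%, against 7.27% over all tested genes) and none was higher. The median was −0.43. The inhibitor gene nfkbiaa had 61.5 CPM in 3dpl/MTZ and 165 CPM in 3dpl, against 46.3 CPM in Non-injured/MTZ and 29.8 CPM in Non-injured, with a lesioned log2 ratio of −1.43 (−1.61 to −1.24). Its paralogue nfkbiab had 136 CPM in 3dpl/MTZ and 251 CPM in 3dpl, and the NF-kB subunit genes nfkb2 and relb had 37.96 and 71.30 CPM and 72.1 and 111 CPM in the same order. Uninjured nfkb2 was also called lower, with 13.7 CPM in Non-injured/MTZ and 22.4 CPM in Non-injured. The death receptor gene tnfrsf21 had 53.4 CPM in 3dpl/MTZ and 93.1 CPM in 3dpl (−0.80), and the protease gene casp8 a log2 ratio of −0.68. The receptor gene tnfrsf1a had 96.7 CPM in 3dpl/MTZ and 64.6 CPM in 3dpl (0.58, not called), and tnfrsf1b, the receptor gene with a known part in zebrafish regeneration, had 3.98 and 5.78 CPM and was not called. The ligands were near absent: tnfa had 0 UMIs in both lesioned libraries, tnfb had 1 UMI in 3dpl/MTZ and 4 in 3dpl, and il1b had 6 and 0. The 2 lower genes not yet named, cxcl8a and tnfrsf9a, rested on 1 cell with 16.8% and 47.1% of their UMIs. The list's median moved to −0.18, with 1 lower gene, when each gene counted at most 1 time in a cell.

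Chemokines guide immune cells and neural progenitors. Of 45 genes of chemokines, other cytokines and their receptors listed, 10 were tested, 2 were lower and 1 was higher in 3dpl/MTZ. The list's median was −0.08. With 10 genes tested, these counts say little beside the 7.27% lower and 7.78% higher over all tested genes. The chemokine gene cxcl12a had 590 CPM in 3dpl/MTZ and 1108 CPM in 3dpl, and 758 CPM in Non-injured/MTZ and 1420 CPM in Non-injured, a log2 ratio of −0.91 in either pair. A UMI was found in 36.4% of thinned cells in 3dpl/MTZ and 52.0% in 3dpl. Its scavenger receptor gene ackr3b was higher, at 90.4 CPM in 3dpl/MTZ and 53.5 CPM in 3dpl. The gene ccl19a.1 had 63.7 and 407 CPM, with 14.9% of its UMIs in 1 cell, and ccl39.7, outside the list, had 12 UMIs in 3dpl/MTZ and 122 in 3dpl, 13.6-fold lower and the lowest ratio of the 12 genes named for low ratios. Of 22 genes for signals to microglia, 10 were tested and 3 were lower (30%, against 7.27% over all tested genes): apoeb, anxa1a and lgals3b. The apolipoprotein gene apoc1, seen in 82.98% of cells with microglia markers, was under the minimum with 9 UMIs in 3dpl/MTZ and 80 in 3dpl. The microglial growth factor gene il34 had 12.9 CPM in 3dpl/MTZ and 12.7 CPM in 3dpl, and csf1a and csf1b had 0 UMIs in all 4 libraries.

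Cytokines of the IL-6 family act through STAT3, which drives glial reactivity. Of 39 genes of this pathway listed, 21 were tested, 4 were lower and none was higher, with a median of −0.18. STAT3 itself had 72.6 CPM in 3dpl/MTZ and 75.1 CPM in 3dpl, a log2 ratio of −0.05 (−0.26 to 0.16), an interval that leaves out a 1.5-fold difference. The inhibitor genes socs3a and socs3b had log2 ratios of −0.28 and 0.41 and were not called. The transcription factor gene cebpb was lower (1045 CPM in 3dpl/MTZ, 1653 in 3dpl). It was also called lower in the uninjured pair (1011 CPM in Non-injured/MTZ, 1655 in Non-injured). The other lower members were the kinase gene tyk2 (9.28 and 16.9 CPM), the receptor gene lifra (7.13 and 13.8 CPM) and the cytokine gene clcf1 (8.12 and 14.0 CPM). Of the clcf1 UMIs, 23.8% were in 1 cell. Wnt signals stabilise beta-catenin, and of 66 Wnt and beta-catenin genes 29 were tested, 2 were lower and 1 was higher, with a median of 0.05. The shares, 6.90% lower and 3.45% higher, were not above the 7.27% and 7.78% over all tested genes. The beta-catenin gene ctnnb1 had 230 CPM in 3dpl/MTZ and 212 CPM in 3dpl, and the feedback target axin2 had 36.6 and 28.9 CPM, neither called. The called members were the second beta-catenin gene ctnnb2 (41.8 and 70.9 CPM) and the receptor gene lgr4 (17.7 and 28.9 CPM), both lower, and myca (114 and 67.5 CPM), higher.

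**Figure D3:**
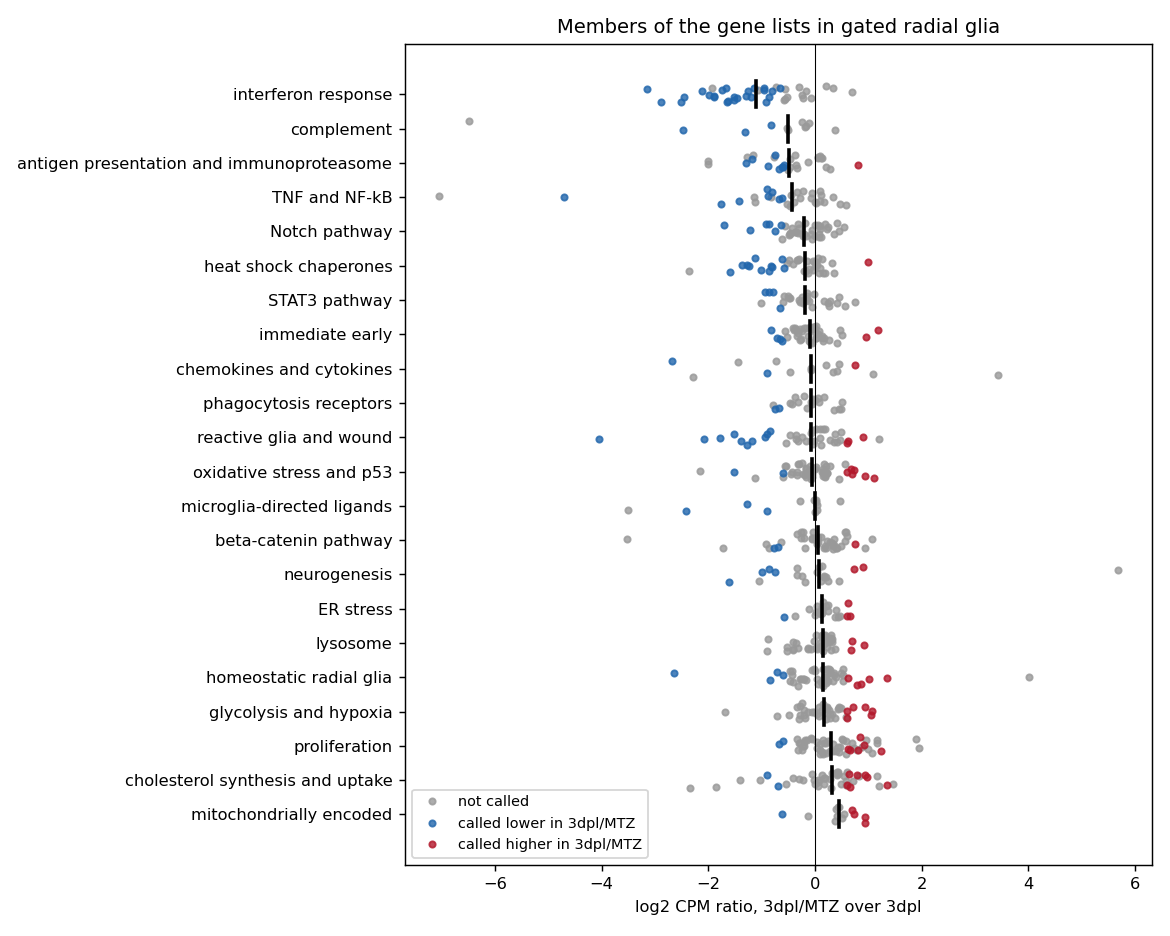
Log2 ratio (3dpl/MTZ over 3dpl, x axis) of each member with at least 20 UMIs, by gene list (rows). Each point is 1 gene, red where called higher, blue where called lower and grey where not called, and the bar is the list's median. The interferon row has its median at −1.11 and no called gene to the right of 0.

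Notch signalling keeps adult radial glia quiescent through genes of the hairy/E(spl) family. Of 49 Notch genes listed, 35 were tested, 6 were lower (17.1%, against 7.27% over all tested genes) and none was higher in 3dpl/MTZ. The median was −0.20. The list was also lower without a lesion, with a median of −0.36, against −0.12 over all genes. There 34 genes were tested, 10 were lower and 1 was higher in Non-injured/MTZ. Over all genes tested in the uninjured pair, 12.1% were lower and 5.61% higher. The target her4.3 had 80.6 CPM in 3dpl/MTZ, 264 in 3dpl, 238 in Non-injured/MTZ and 478 in Non-injured (lesioned log2 ratio −1.71), and her4.4 had 302, 572, 1141 and 1177 CPM in the same order (−0.92). The more abundant targets her4.1 (2195 CPM in 3dpl/MTZ, 2513 in 3dpl), her4.2 (1635 and 2210 CPM) and her6 (1853 and 1741 CPM) were not called, nor was notch3, the receptor gene of quiescent radial glia (784 and 616 CPM). The lower her12, with 17.98% of its UMIs in 1 cell, and her4.1 to her4.4 are neighbours on chromosome 23 in the RefSeq GRCz12tu annotation, so reads of these similar genes could be split between them. Outside this cluster, her9 (60.7 CPM in 3dpl/MTZ, 110 in 3dpl), the receptor gene notch1a (43.9 and 68.2 CPM) and the protease gene adam10a (48.2 and 80.9 CPM) were lower.

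Genes of neuronal production showed no common direction: 14 of 39 were tested, 4 were lower and 2 were higher, with a median of 0.08. In shares, 28.6% were lower and 14.3% higher, against 7.27% and 7.78% over all tested genes. The proneural gene ascl1a had 60.5 CPM in 3dpl/MTZ and 55.1 CPM in 3dpl and was not called, while ascl1b had 18.4 and 36.7 CPM. The transcription factor gene sox4a had 52.1 CPM in 3dpl/MTZ and 88.0 CPM in 3dpl, and the tubulin gene tubb5 had 38.1 and 69.1 CPM. Both sox4a and tubb5 were also called lower without a lesion. In Non-injured/MTZ and Non-injured sox4a had 28.9 and 58.4 CPM, and tubb5 had 10.9 and 29.8 CPM. Early neuronal elavl3 was lower with 42.2% of its UMIs in 1 cell. The higher genes were stmn1a, a microtubule regulator gene (97.1 CPM in 3dpl/MTZ, 51.8 in 3dpl), and elavl4, with 12.8% of its UMIs in 1 cell.

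The proliferation list had 60 genes, of which 37 were tested, 6 were higher and 2 were lower in 3dpl/MTZ, with a median of 0.30. As shares, 16.2% were higher and 5.41% lower, against 7.78% and 7.27% over all tested genes. The replication clamp gene pcna had 252 CPM in 3dpl/MTZ, 164 in 3dpl, 91.8 in Non-injured/MTZ and 98.1 in Non-injured, and its lesioned log2 ratio was 0.62 (0.49 to 0.75). A pcna UMI was found in 11.08% of thinned cells in 3dpl/MTZ and 8.46% in 3dpl, against 6.17% of cells with neuronal markers. The licensing gene cdt1 had 26.7 and 14.0 CPM, and the mitotic genes top2a, ccna2, cdk1 and cenpf were higher with 10.6% to 21.3% of their UMIs in 1 cell. The helicase gene mcm7 and the methyltransferase gene dnmt1 were lower, with log2 ratios of −0.69 and −0.60, and mki67 had 26.4 CPM in 3dpl/MTZ and 18.2 CPM in 3dpl and was not called. At least 3 proliferation genes were seen in 16.8% of thinned cells in 3dpl/MTZ (14.8 to 19.02) and 12.8% in 3dpl (10.7 to 15.13). The direction depended on the gate: the median was −0.06 with fabp7a at 0.2% or more, −0.09 at 1% or more and −0.12 with fabp7a and gfap both required.

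Sterols are made from acetyl-CoA by a chain of enzymes that SREBP factors switch on together. Of 48 cholesterol and lipid genes listed, 28 were tested, 7 were higher and 2 were lower in 3dpl/MTZ, with a median of 0.31. The 25% higher compares with 7.78% over all tested genes, and the 7.14% lower is near the 7.27% over all. The early enzyme gene hmgcs1 had 90.2 CPM in 3dpl/MTZ, 45.8 in 3dpl, 326 in Non-injured/MTZ and 271 in Non-injured. Both lesioned libraries were below both uninjured ones, with 3dpl the lower. Later enzymes had the same order between the lesioned libraries, msmo1 with 163 CPM in 3dpl/MTZ and 84.9 CPM in 3dpl, ebp with 29.7 and 11.55 CPM and dhcr7 with 38.1 and 21.99 CPM. The sterol feedback gene insig1 had 436 and 287 CPM, and the lipid genes lpin1 and elovl6 both had a log2 ratio of 0.65. The rate-limiting enzyme gene hmgcra had 112 and 84.4 CPM and was not called. The sterol exporter gene abca1a (107 CPM in 3dpl/MTZ, 173 in 3dpl) and the fatty acid desaturase gene fads2 (98.6 and 184 CPM) were lower. At equal depth per cell the median of this list was 0.11.

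Of 51 glycolysis and hypoxia genes listed, 32 were tested, 6 were higher (18.75%, against 7.78% over all tested genes) and none was lower. The median was 0.17. Lactate dehydrogenase, encoded by ldha, had 279 CPM in 3dpl/MTZ, 146 in 3dpl, 177 in Non-injured/MTZ and 202 in Non-injured (lesioned log2 ratio 0.94). The glycolytic regulator gene pfkfb4b had 83.1 CPM in 3dpl/MTZ and 39.5 CPM in 3dpl, and egln3, which encodes an oxygen-sensing hydroxylase, had 21.7 and 10.4 CPM. Of 62 oxidative stress and p53 genes, 46 were tested, 6 were higher and 2 were lower, with a median of −0.06. In shares, 13.0% were higher and 4.35% lower, against 7.78% and 7.27% over all tested genes. Higher members included genes of glutathione supply, gsr (21.6 CPM in 3dpl/MTZ, 10.0 in 3dpl), gclm (18.7 and 9.77 CPM) and gclc (78.7 and 47.3 CPM), the peroxide-removing prdx1 (511 and 338 CPM), and the p53 targets cdkn1a (143 and 89.3 CPM) and baxa (92.5 and 56.9 CPM). The p53 inhibitor gene mdm2 (17.6 and 26.7 CPM) and hmox1a were lower. Of 54 lysosome genes, 36 were tested and 3 were higher, or 8.33%, near the 7.78% called higher over all tested genes. They were the protease gene ctsz (79.4 CPM in 3dpl/MTZ, 42.0 in 3dpl) and the proton pump genes atp6v0b and atp6ap2. Of 35 phagocytosis genes, 16 were tested and 2 were lower, or 12.5%, against 7.27% called lower over all tested genes. They were itgav (45.9 and 73.5 CPM) and dock1 (9.12 and 15.3 CPM), genes of an engulfment receptor and of its signalling.

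Chaperones bind unfolded proteins, and the inducible HSP70 genes answer heat and other stress. Of 42 chaperone genes, 35 were tested, 11 were lower and 1 was higher in 3dpl/MTZ, with a median of −0.19. These are 31.4% lower and 2.86% higher, against 7.27% and 7.78% over all tested genes. The summed level of the chaperone genes was 15529 CPM in 3dpl/MTZ and 28746 CPM in 3dpl. The inducible HSP70 gene hsp70l had 3218 CPM in 3dpl/MTZ, 7625 in 3dpl, 1978 in Non-injured/MTZ and 5049 in Non-injured. Its log2 ratio was −1.24 (−1.27 to −1.22) in the lesioned pair and −1.35 in the uninjured pair, a difference of 0.11 (0.06 to 0.16). The neighbouring copies hsp70.1, hsp70.2 and hsp70.3, whose reads could be shared, had lesioned log2 ratios of −1.60, −1.36 and −1.27, and the co-chaperone gene dnajb1b one of −0.82. An hsp70.2 UMI was found in 34.6% of thinned cells in 3dpl/MTZ and 53.04% in 3dpl, and in 33.3% of cells with neuronal markers, so the transcript was not particular to gated cells. When each gene counted at most 1 time in a cell, 2 chaperone genes were lower, and hsp70l had a log2 ratio of −0.11. Counted so, a gene with UMIs in most cells of both libraries cannot differ much, whatever its UMIs per cell. The small heat shock gene cryabb was higher, with 38.46 CPM in 3dpl/MTZ and 19.3 CPM in 3dpl. Of 26 genes of the endoplasmic reticulum response, 21 were tested, 3 were higher (pdia6, atf4b and dnajb9b) and 1 was lower (atf4a). As shares, 14.3% were higher and 4.76% lower, against 7.78% and 7.27% over all tested genes.

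Immediate early genes respond to stimulation and to tissue dissociation. Of 46 listed, 39 were tested, 4 were lower and 2 were higher in 3dpl/MTZ, with a median of −0.09. The shares were 10.3% lower and 5.13% higher, against 7.27% and 7.78% over all tested genes. The transcription factor gene egr2a had 141 CPM in 3dpl/MTZ and 250 CPM in 3dpl, the stress phosphatase gene ppp1r15a had 150 and 244 CPM, and nr4a3 had a log2 ratio of −0.62. Higher members were maff (543 CPM in 3dpl/MTZ, 279 in 3dpl) and klf2a (14.3 and 6.22 CPM). The part of dissociation in these values was not tested.

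The mitochondrial genome encodes subunits of the respiratory chain. All 13 protein genes were tested, 4 were higher (30.8%) and 1 was lower (7.69%) in 3dpl/MTZ, against 7.78% and 7.27% over all tested genes. The summed level of the 13 genes was 33390 CPM in 3dpl/MTZ and 20075 CPM in 3dpl, against 17067 CPM in Non-injured/MTZ and 21064 CPM in Non-injured. The cytochrome oxidase gene mt-co2 had 7011 CPM in 3dpl/MTZ, 3663 in 3dpl, 2466 in Non-injured/MTZ and 3769 in Non-injured, and mt-atp6 had a lesioned log2 ratio of 0.93, mt-cyb 0.74 and mt-co3 0.70. The median mitochondrial share of a cell, given above, counts UMIs of these same genes and is no separate observation. In the cells outside the gate the summed ratio was 1.77, against 1.66 in gated cells. Counted at most 1 time in a cell, no mitochondrial gene was called higher, but for the 4 higher genes no such call was possible. They had a UMI in nearly every gated cell of both libraries, such as mt-co2 in 99.3% of cells in 3dpl/MTZ and 98.9% in 3dpl, and mt-cyb in 98.3% and 97.8%. The part of RNA quality was not tested.

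Genes of resting radial glia were mostly not called: of 59 listed, 46 were tested, 5 were higher and 4 were lower, with a median of 0.15. The shares were 10.9% higher and 8.70% lower, against 7.78% and 7.27% over all tested genes. The prostaglandin D synthase gene ptgdsb.1 (ENSDARG00000027088) had 2040 CPM in 3dpl/MTZ, 802 in 3dpl, 2610 in Non-injured/MTZ and 1570 in Non-injured, and a lesioned log2 ratio of 1.35 (1.29 to 1.40). A UMI of it was found in 53.7% of thinned cells in 3dpl/MTZ and 36.2% in 3dpl, against 0.617% of cells with neuronal markers. Counted at most 1 time in a cell it had a log2 ratio of 0.35, short of the call. The sodium pump gene atp1a1b had 4968 CPM in 3dpl/MTZ and 2886 CPM in 3dpl (0.78), and the membrane glycoprotein gene gpm6aa had 1788 and 1172 CPM. The glutamate-handling genes glula (14038 CPM in 3dpl/MTZ, 9809 in 3dpl) and slc1a2b (11182 and 8865 CPM) and the gap junction gene cx43 (3242 and 2539 CPM) were not called. Lower members beside nppc were the glutamate receptor gene grm3 (16.7 CPM in 3dpl/MTZ, 27.3 in 3dpl), ndrg2 (83.7 and 128 CPM) and the retinoid-binding gene crabp1a (33.0 and 59.3 CPM).

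Of the 12 genes named for the highest ratios, scinlb, which encodes an actin-severing protein, had 133 UMIs in 3dpl/MTZ and 6 in 3dpl, or 22.05 and 1.33 CPM, against 34.02 CPM in Non-injured/MTZ and 6.25 CPM in Non-injured. The scaffold gene lin7a had 20.2 CPM in 3dpl/MTZ and 2.22 CPM in 3dpl, and 14.8% of cells with neuronal markers had a UMI. The prostaglandin reductase gene ptgr1 had 95.2 CPM in 3dpl/MTZ, 25.3 in 3dpl, 116 in Non-injured/MTZ and 29.0 in Non-injured, and a UMI in 10.2% and 1.95% of thinned lesioned cells, with 10.5% in cells with neuronal markers. The reticulon gene rtn1b had 284 CPM in 3dpl/MTZ, 96.0 in 3dpl, 452 in Non-injured/MTZ and 115 in Non-injured, and was found in 67.3% of cells with neuronal markers. The level in Non-injured/MTZ was above that in 3dpl/MTZ for each of these genes except lin7a, at 9.43 CPM. By contrast the beta-adrenergic receptor gene adrb2a had 163 CPM in 3dpl/MTZ and 54.0 CPM in 3dpl (log2 ratio 1.59, 1.39 to 1.80), with 82.9 CPM in Non-injured/MTZ and 105 CPM in Non-injured. The carbonic anhydrase gene cahz had 552 and 215 CPM in the lesioned libraries. It is also listed as an erythrocyte marker, and the globin gene hbba1 had 17 UMIs in 3dpl/MTZ and 5 in 3dpl.

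The uninjured pair shows how much of the difference stood without a lesion. Of 6101 genes tested there, 5.61% were called higher and 12.1% lower in Non-injured/MTZ. Over the 6036 genes tested in both pairs, 79 were higher in both, 17.6% of those higher in the lesioned pair and 24.2% of those higher in the uninjured pair. Lower in both were 102 genes, 34% of those lower in the lesioned pair and 13.9% of those lower in the uninjured pair. Across genes, which are not replicates, Pearson's r was 0.227 and Spearman's rho 0.160, and the pairs shared no library but shared the strain difference and the platform. Of the 12 genes with the highest lesioned ratios, 8 were also higher in Non-injured/MTZ, among them scinlb, ptgr1, rtn1b and ptgdsb.1. Of the 12 with the lowest, only ppdpfa was also lower there (11.9 CPM in 3dpl/MTZ, 53.3 in 3dpl, 30.0 in Non-injured/MTZ and 98.9 in Non-injured). Any of these 12 under 100 UMIs in the uninjured pair could not be called there, such as c7b with 11 UMIs in Non-injured/MTZ and 5 in Non-injured. Over the 12513 genes with at least 20 UMIs in the lesioned pair, the median uninjured log2 ratio was −0.12. The interferon list had the same uninjured median of −0.12, with 10 genes tested, 1 higher and 3 lower. Most of its members were thus too low there to be tested. Without ifi45 its summed level was 654 CPM in Non-injured/MTZ and 708 CPM in Non-injured, a ratio of 0.923. The chaperone list had an uninjured median of −0.37, and its summed ratio was 0.540 in the lesioned pair and 0.598 in the uninjured pair. For NF-kB genes the uninjured median was 0.29. The uninjured gates also differed in content and depth. Gated cells with at least 3 microglia markers numbered 35 in Non-injured/MTZ and 0 in Non-injured. The microglia markers summed to 189 CPM in Non-injured/MTZ and 9.19 CPM in Non-injured. Medians were 2739 and 3383 UMIs per gated cell, and 361 and 33 gated cells had under 1000 UMIs, in the same order. The part of these differences in the uninjured ratios was not tested.

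**Figure D4:**
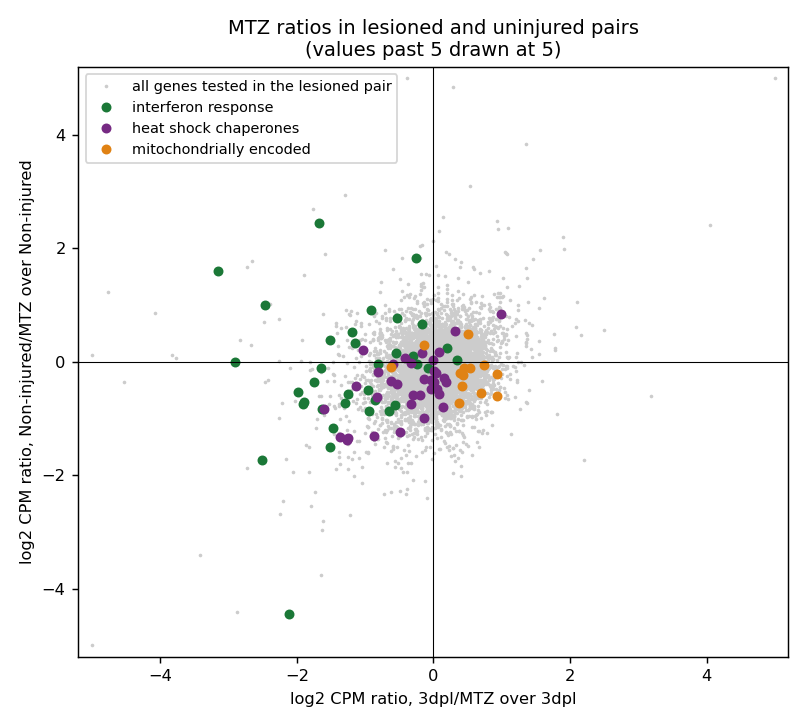
Log2 ratio of the uninjured pair (Non-injured/MTZ over Non-injured, y axis) against that of the lesioned pair (3dpl/MTZ over 3dpl, x axis) for genes tested in the lesioned pair, 1 point per gene, with 3 lists coloured. An added 0.5 UMI entered the y values only. A gene at 0 in 1 lesioned library is drawn at the limit of the x axis. The HSP70 gene hsp70l lies at −1.24 and −1.35, below 0 on both axes, whereas nppc lies at −2.65 and 1.80.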

How the data were processed

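Cell barcodes, genes and UMI counts were deposited as filtered 10x matrices of 25107 features; the counts are unnormalized UMI counts made by the authors with Cell Ranger, version 3.1.0 per the submitters' processing notes and 4.0.0 per the file headers, on genome GRCz11. The annotation release and strand setting are not given in the sources used here. The strain transgenes are not among the features. Rows with the same symbol were summed, giving 24435 symbols. The treatment label reads stab-lesioned for every library, so groups were taken from the titles.

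Ratios carry exact conditional binomial intervals, shares Clopper-Pearson intervals and CPM Poisson intervals, all at 95%. UMIs mark molecules, but cells of 1 library are not replicates, so no test between conditions was possible. A prior of 0.5 UMI was added for medians over genes, correlations, differences between pairs, plotted ratios and values under alternatives, and not for the other ratios and folds of single genes. With 3 counts as the floor, the limit of a gene at 0 was 0.497 CPM in gated cells of 3dpl/MTZ and 0.666 CPM in 3dpl. Doublets were scored with Scrublet in scanpy 1.11.5 and kept, since leaving out the 18 and 10 gated barcodes with the highest scores was an alternative. Work was done in Python 3.11.15 with numpy 2.4.6, scipy 1.17.1 and pandas 2.3.3, and the calling steps were tested on simulated data.

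The members, the 22 gene lists and the 12 marker lists were chosen with earlier results of these data known. Genes were named as the 12 highest and 12 lowest called genes by the interval bound nearest 0, leaving out genes with over 10% of the UMIs of the higher library in 1 cell, mitochondrially encoded genes and clone names (72 higher and 94 lower), and as up to 5 called members of each list each way, with the marker and question genes of the study. Other list members given were chosen after their values were seen. RefSeq GRCz12tu was used for gene neighbours only. A planned search of promoter sequence was not run, since no sequence of the files' build was used here. Alternatives changed the gate, the filters, the scaling, the depth per cell, the UMI minimum and the fold. Some genes counted in the lists are not reported here by name.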

Additional observations from a re-analysis of the deposited data

Results flagged for a closer look

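A group of 7 named genes was called in opposite directions by the lesioned pair (3dpl/MTZ over 3dpl) and the uninjured pair (Non-injured/MTZ over Non-injured), and these differences between pairs were not tested, since each condition is 1 library. The natriuretic peptide gene nppc had log2 ratios of −2.65 in the lesioned pair and 1.80 in the uninjured pair. For the NF-kB inhibitor gene nfkbiaa they were −1.43 and 0.64, and for the death receptor gene tnfrsf21 −0.80 and 0.69. The engulfment genes dock1 and itgav had −0.75 and 0.82, and −0.68 and 0.59. The glutamate receptor gene grm3 had −0.71 in the lesioned pair and 1.97 in the uninjured pair. The mitochondrial gene mt-co2 had 0.94 and −0.61, and the median mitochondrial share of a gated cell was 2.88% in 3dpl/MTZ, 1.89% in 3dpl, 1.65% in Non-injured/MTZ and 1.60% in Non-injured, whose part was not tested. Over all 6036 genes tested in both pairs, 29 were higher in the lesioned pair and lower in the uninjured pair. These were 6.46% of the genes higher in the lesioned pair, against 12.1% of all 6036 genes called lower in the uninjured pair. The reverse held for 24 genes, 8% of those lower in the lesioned pair, against 5.40% of all 6036 called higher in the uninjured pair.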

How the results depend on the processing

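No paired analysis was possible because each condition is 1 library with no replicate number. Against 603 genes called higher and 563 genes called lower, 237 and 160 were called after thinning to 1000 UMIs, 386 and 257 when each gene counted at most 1 time per cell, 928 and 1165 from 20 UMIs, 1002 and 1420 with no minimum, and 101 and 184 at 2-fold. At most 1 count per cell moved the medians of chaperones to −0.038, interferon to −0.63, NF-kB to −0.18, STAT3 to −0.060, proliferation to 0.17 and immediate early genes to 0.0053, the last turning sign. Thinning moved chaperones to −0.36 and cholesterol to 0.11. Proliferation turned to −0.060 at a gate of 0.2% fabp7a, −0.091 at 1% and −0.12 with gfap and fabp7a required, and was 0.15 from 100 UMIs. Beta-catenin genes moved to 0.20 at 1% fabp7a. Without ifi45 the interferon sum ratio was 0.422, an alternative chosen after seeing the data. Those 3 gates took 83.6%, 71.3% and 65.3% of cells in 3dpl/MTZ and 95.5%, 79.5% and 73.1% in 3dpl, and 800 genes with 10% mitochondrial UMIs took 81.8% in 3dpl/MTZ. Named genes that turned sign were cdk1 (−0.11 at 1% fabp7a, −0.14 counted at most 1 time), cenpf (−1.23 at 1%), top2a (−0.068 at 1%), dnmt1 (0.40 thinned), hsp90aa1.2 (0.052 counted at most 1 time), and, with both markers required, elavl4 (−0.44), icn (0.63) and pcna (−0.048); the cause was not tested. Of 130 named genes called, 68 kept their call after thinning, which leaves fewer UMIs, and 48 when counted at most 1 time. A gene seen in nearly every cell of both libraries cannot be called when counted in that way. The other alternatives kept 112 to 126. Depth limits all genes under 100 UMIs, and 1 library per condition limits every comparison.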

Other observations

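Genes of ribosomal proteins, outside the lists above, had a median log2 ratio of −0.28 over 84 tested genes, of which none was higher and 10 were lower in 3dpl/MTZ. Over all tested genes 7.78% were higher and 7.27% lower. Cells with at least 3 microglia markers inside the gate numbered 0 in 3dpl/MTZ, 1 in 3dpl, 35 in Non-injured/MTZ and 0 in Non-injured, so the uninjured library labelled Non-injured/MTZ held most of them. Markers of endothelial cells summed to 10.8 CPM in 3dpl/MTZ and 31.5 CPM in 3dpl, or 65 and 142 UMIs. The tight junction gene cldn5b alone held 46 and 125 of these UMIs, so the difference lay in cldn5b and not in the marker set. Of the others, flt1 had 11 and 10 UMIs, tie1 3 and 0 and pecam1 0 and 3. Outside the gate, 7 cells of 3dpl/MTZ and 0 of 3dpl carried at least 5 endothelial markers. Markers of ciliated cells summed to 175 CPM in 3dpl/MTZ and 281 CPM in 3dpl. The clone BX511067.1, named after its values were seen, had 110 UMIs in 3dpl/MTZ and 0 in 3dpl, and 66 UMIs in Non-injured/MTZ and 0 in Non-injured, at least 27.4-fold and at least 17.1-fold higher against a floor of 3 counts per library.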
